A study of Mus musculus with 9 samples.

Results

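The transcripts of 10 genes known from alveolar macrophages were followed in RNA sequencing libraries of sorted lung neutrophils: *Ear1*, *Ear2*, *Plet1*, *Lpl*, *Krt79*, *Cidec*, *Trim29*, *Marco*, *Car4* and *Fabp4*. They were picked because they were lower in the Ly6Glow sort, so their fall in that sort is described here without a test. All 10 were found by symbol among 18325 genes with values, and all 10 are among the 14108 genes that passed the filter on low counts. Genes scarce in Ly6Glow, such as *Trim29*, *Cidec* and *Krt79*, passed it through the Ly6Ghigh groups. The study compared 9 libraries from the lungs of female BALB/c mice, 3 in each of 3 groups. Ly6Ghigh and Ly6Glow neutrophils came from lungs at the macrometastatic stage after 4T1-LM3 cells, a lung-tropic mouse mammary carcinoma line, had been injected into the mammary fat pad. Ly6Ghigh neutrophils of normal lung came from mice for which the labels name no tumor injection. The labels give no age, while the methods give an age range in weeks for the BALB/c mice that were purchased. Pooling of mice is stated neither in the labels nor in the methods. The p-values therefore measure the spread between these libraries, which may in part be technical. Cells were sorted on CD45 and Ly6g (CD11b was also stained when lung neutrophils were isolated), and the methods gate macrophages separately, on F4/80, without saying whether that gate was applied in the sorts for sequencing.

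Alveolar macrophages live on the air side of the alveolus and take up and break down surfactant, the lipid and protein film that keeps alveoli open. GM-CSF and the nuclear receptor PPAR-gamma set up their program, in which genes of fatty acid uptake and lipid storage are prominent. Several of the 10 genes are also used elsewhere: the Ear ribonucleases in eosinophils, *Car4* and *Fabp4* in capillary endothelium, *Lpl*, *Fabp4* and *Cidec* in fat cells, and *Krt79* and *Trim29* in epithelia. In a bulk sample, fewer cells of a type and less RNA per cell cannot be told apart.

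*Ear1* and *Ear2* have nearly the same sequence before their RefSeq starts, and these sequences are shown. How reads may be shared out between the genes depends on their transcripts, which are compared further below. In the GRCm38 annotation *Ear1* lies on chr14:43818765-43875517 (a span that holds 4 other annotated genes, among them *Ear-ps9*) and *Ear2* on chr14:44102654-44103534. The 250 bases before each start, from RefSeq on GRCm38.p6, were aligned, and 246 of 248 aligned bases (99.2%) were identical. The *Ear1* window is chr14:43819640-43819889 on the minus strand and the *Ear2* window is chr14:44102404-44102653 on the plus strand. The *Ear1* window lies inside the annotated span given above, so it is upstream of the RefSeq start but not of that whole span. Capitals mark the bases that differ between them.
Ear1: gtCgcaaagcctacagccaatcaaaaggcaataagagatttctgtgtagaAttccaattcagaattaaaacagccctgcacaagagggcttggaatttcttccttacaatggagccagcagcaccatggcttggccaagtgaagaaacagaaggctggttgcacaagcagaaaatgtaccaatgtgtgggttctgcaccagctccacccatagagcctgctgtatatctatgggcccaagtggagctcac
Ear2: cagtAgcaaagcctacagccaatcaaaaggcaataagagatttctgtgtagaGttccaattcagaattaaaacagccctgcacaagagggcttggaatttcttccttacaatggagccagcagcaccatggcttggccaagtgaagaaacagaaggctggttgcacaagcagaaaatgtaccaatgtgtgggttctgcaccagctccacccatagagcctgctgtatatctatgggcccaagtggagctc

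The transcripts themselves were compared by exact windows and not by percent identity, so windows that differ at a single base do not count as shared. Of the 150-base windows of the *Ear1* coding transcripts, the read length the labels give, 5.67% also occurred in another gene, the pseudogene *Ear-ps9*. For *Ear2* the share was 6.32%, in *Ear10*, and no window was common to *Ear1* and *Ear2*. The other 8 genes had no such window in any other gene. Counts of *Ear1* and *Ear2* are uncertain to the extent that shorter matches were split between copies, and neither gene had a whole-number count in any of the 9 libraries, as was also the case for *Plet1* and *Lpl*. *Plet1* overlaps the antisense gene *Plet1os*. The labels describe strand-specific libraries, but whether strand was used in counting is not given in the sources used here.

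Promoter windows were at hand for 7 of the 10 genes (8 windows, since *Cidec* has more than 1 start), and not for *Lpl*, *Trim29* and *Fabp4*. Among these, *Plet1* and *Marco* are shown because their steps differ below: *Marco* was lost mostly between normal and macrometastatic lung, and *Plet1* mostly between the sorts. Letters were searched on both strands. The nuclear receptor half-site AGGTCA was found in the *Plet1* window alone (1 of 8, against 14.0% of 32851 promoters of the same length). The purine-rich PU.1 core GAGGAA was found in the *Marco* window alone (1 of 8, against 23.3%). The C/EBP letters TTGCNNAA were in 4 of the 8 windows, those of *Ear1*, *Ear2* and *Plet1* and one of *Cidec*, against 9.56% of promoters, and the *Ear1* and *Ear2* windows are near copies. The PPAR and RXR direct repeat of that half-site, with 1 base between the copies, was in none of the 8 and in 0.0335% of promoters. Capitals mark AGGTCA, read on the opposite strand, in *Plet1* (chr9:50494275-50494524, plus strand) and GAGGAA in *Marco* (chr1:120505025-120505274, minus strand).
Plet1: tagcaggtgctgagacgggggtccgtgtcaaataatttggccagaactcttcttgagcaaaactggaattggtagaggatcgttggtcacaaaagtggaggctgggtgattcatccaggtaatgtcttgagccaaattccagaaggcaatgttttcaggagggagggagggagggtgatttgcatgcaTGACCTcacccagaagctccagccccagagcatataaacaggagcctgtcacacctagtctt
Marco: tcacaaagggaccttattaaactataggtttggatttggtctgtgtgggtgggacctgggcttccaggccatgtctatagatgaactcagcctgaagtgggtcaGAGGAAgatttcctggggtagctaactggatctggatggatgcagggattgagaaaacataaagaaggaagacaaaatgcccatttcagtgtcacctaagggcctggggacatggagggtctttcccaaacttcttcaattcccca

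Libraries held 15267177 to 17841807 estimated counts, and the groups differed in total by little. Levels are given as CPM, counts scaled to a fixed library total after edgeR's TMM scaling of library size, with scaling factors of 0.803 to 1.32. Neutrophil markers were abundant in all libraries and lowest in normal lung: 14 genes, led by *S100a9*, *S100a8* and *Ngp*, summed to 85476 to 87171 CPM in Ly6Glow, 100426 to 102693 CPM in macrometastatic Ly6Ghigh and 23044 to 23228 CPM in normal lung libraries. The part of this difference in the values against normal lung was not tested. *Ly6g*, the gene of the protein sorted on, did not follow the names of the sorts: it averaged 374 CPM in macrometastatic Ly6Ghigh, 394 CPM in Ly6Glow and 119 CPM in normal lung Ly6Ghigh libraries. Between the macrometastatic sorts its difference was 0.076 on the log2 scale (edgeR adjusted p = 0.0577), and on FPKM the order was the opposite, with means of 409 in Ly6Ghigh and 366 in Ly6Glow. The sort read surface protein, which was not measured here, so Ly6Ghigh and Ly6Glow are used below as the names the labels give the libraries. No marker with values in the lists below was at 0 in all 9 libraries.

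In 9 of the 10 genes all macrometastatic Ly6Ghigh libraries lay below all normal lung libraries (45.0% of tested genes did), and in *Ear1* they lay above (40.2% did). The Ly6Glow libraries lay below the macrometastatic Ly6Ghigh libraries in all 10 (33.1% of tested genes did) and below the normal lung libraries in all 10 (47.5% did), from which nothing is read, since the genes were picked on it. Together the genes made 1018 to 1032 CPM in normal lung, 283 to 290.2 CPM in macrometastatic Ly6Ghigh and 34.2 to 37 CPM in Ly6Glow libraries, or 0.133% to 0.136%, 0.0269% to 0.0274% and 0.00275% to 0.00297% of all counts.

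**Figure D1:**
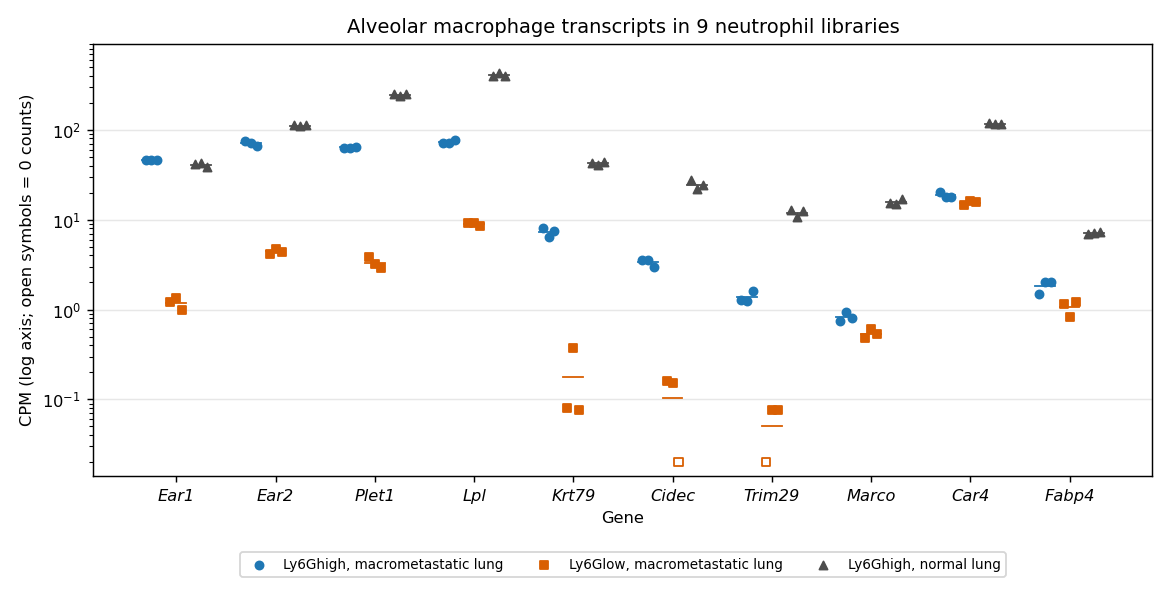
CPM of each gene in each of the 9 libraries on a log axis, with 3 points per group, a bar at the group mean and open symbols where a library had 0 counts. In 9 of the 10 genes the normal lung libraries lie highest, and in all 10 the Ly6Glow libraries lie lowest.

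The Ear ribonucleases, secreted RNA-degrading proteins of the RNase A family, were retained most in macrometastatic Ly6Ghigh neutrophils. *Ear1* (NCBI Gene 13586) had 45.6, 45.6 and 46.2 CPM in the macrometastatic Ly6Ghigh libraries, 1.22, 1.35 and 0.991 CPM in the Ly6Glow libraries and 41.4, 42.4 and 38.2 CPM in the normal lung libraries. It was therefore nearly level in both Ly6Ghigh groups and low in Ly6Glow only. *Ear2* (NCBI Gene 13587) had 75.9, 70.8 and 66.7 CPM in macrometastatic Ly6Ghigh, 4.14, 4.74 and 4.42 CPM in Ly6Glow and 112, 109 and 112 CPM in normal lung libraries. Here the 3 groups stood apart, with normal lung highest.

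*Plet1* (NCBI Gene 76509), a membrane-anchored surface protein, had 62.4, 63.3 and 65.1 CPM in macrometastatic Ly6Ghigh, 3.82, 3.24 and 2.9 CPM in Ly6Glow and 250.5, 240.4 and 248 CPM in normal lung libraries. Its Ly6Glow level was 1.35% of that in normal lung and 5.22% of that in macrometastatic Ly6Ghigh neutrophils.

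Lipid genes came next. *Lpl* (NCBI Gene 16956), lipoprotein lipase, which frees fatty acids from triglycerides, had 70.7, 71.8 and 77.9 CPM in macrometastatic Ly6Ghigh, 9.18, 9.26 and 8.39 CPM in Ly6Glow and 398, 430.5 and 399 CPM in normal lung libraries. *Cidec* (NCBI Gene 14311), which enlarges lipid droplets, had 3.57, 3.54 and 2.97 CPM in macrometastatic Ly6Ghigh and 27.3, 22.1 and 24.3 CPM in normal lung libraries. In the Ly6Glow libraries it had only 2, 2 and 0 counts. *Fabp4* (NCBI Gene 11770), a fatty acid carrier, had 1.48, 2.01 and 2.04 CPM in macrometastatic Ly6Ghigh, 1.14, 0.828 and 1.22 CPM in Ly6Glow and 6.96, 7.16 and 7.21 CPM in normal lung libraries. The macrometastatic groups lay close together for *Fabp4*, the lowest Ly6Ghigh library being 1.48 CPM and the highest Ly6Glow library 1.22 CPM.

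The keratin *Krt79* (NCBI Gene 223917) had 8.06, 6.38 and 7.55 CPM in macrometastatic Ly6Ghigh and 43.1, 40.5 and 44.3 CPM in normal lung libraries, against 1, 5 and 1 counts in Ly6Glow. The Ly6Glow library with 5 counts thus carries most of that group's signal. *Trim29* (NCBI Gene 72169), a tripartite motif protein of innate signalling, had 1.29, 1.24 and 1.61 CPM in macrometastatic Ly6Ghigh and 12.9, 10.7 and 12.4 CPM in normal lung libraries, and 0, 1 and 1 counts in Ly6Glow.

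*Marco* (NCBI Gene 17167), a scavenger receptor for particles and bacteria, was scarce in both macrometastatic groups. It had 12, 16 and 13 counts in the Ly6Ghigh and 6, 8 and 7 counts in the Ly6Glow libraries, or 0.829 and 0.541 CPM on average, against 15.3, 14.9 and 17.1 CPM in normal lung. *Car4* (NCBI Gene 12351), a membrane-bound carbonic anhydrase, had 20.3, 17.9 and 17.8 CPM in macrometastatic Ly6Ghigh, 14.5, 16.3 and 15.6 CPM in Ly6Glow and 119, 115 and 115 CPM in normal lung libraries. For both genes the large step was between normal and macrometastatic lung, and that between the macrometastatic sorts was small.

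Levels between genes can be compared on FPKM, which also scale for transcript length. In normal lung libraries the order of mean FPKM was *Ear2* (218), *Plet1* (179), *Lpl* (134), *Car4* (119.5), *Ear1* (80.1), *Krt79* (27.2), *Cidec* (18.5), *Fabp4* (15.3), *Marco* (11) and *Trim29* (5.58), and no neighbours in this order overlapped. In macrometastatic Ly6Ghigh libraries *Ear2* (101) and *Ear1* (65.4) led, followed by *Plet1* (33.6), *Lpl* (17.4) and *Car4* (14), while *Krt79* (3.39) overlapped *Fabp4* (2.9) and *Trim29* (0.463) overlapped *Marco* (0.42). In Ly6Glow libraries *Car4* was the most abundant of the 10 per length, at 9.74 ± 0.498 FPKM (SD, n = 3), above *Ear2* at 5.34 ± 0.35 FPKM. *Lpl* (1.8), *Plet1* (1.48) and *Ear1* (1.45) each overlapped the next in this order, which ended with *Fabp4* (1.35), above *Marco* (0.233), and *Krt79*, *Cidec* and *Trim29* averaged at most 0.07 FPKM.

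The comparison of macrometastatic with normal lung Ly6Ghigh neutrophils asks how the tumor-bearing lung differs within 1 sort gate. It is the contrast that the choice of these genes did not use, though it shares libraries with those that did. Of the 10 genes, 9 were called lower in macrometastatic lung (edgeR quasi-likelihood test, Benjamini-Hochberg adjusted p over 14108 genes no higher than 0.05, and a log2 fold change beyond 0.58 in either direction), against 36.6% of all tested genes called lower. The median log2 fold change of the 10 was -2.51 and that of all tested genes was -0.09. In the same comparison the lists of endothelial and lung epithelial markers described below had medians of -2.83 and -3.52. The fall was therefore not particular to the 10 genes. Neutrophil markers had a median of 1.96.

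*Marco* fell most, to 5.26% of its normal lung CPM, a log2 fold change of -4.23 with an SE of 0.145 and an edgeR adjusted p of 3.63e-17. *Trim29* (-3.11, SE 0.151), *Cidec* (-2.87, SE 0.117), *Car4* (-2.64, SE 0.055), *Krt79* (-2.54, SE 0.085) and *Lpl* (-2.48, SE 0.0438) followed, at between 11.5% and 18.0% of their normal lung CPM. *Plet1* (-1.95, SE 0.0403) and *Fabp4* (-1.94, SE 0.15) kept 25.8% and 25.9%. The highest edgeR adjusted p among these 8 genes was 6.94e-11. *Ear2* kept 64.0% (-0.64, SE 0.0459, edgeR adjusted p = 1.8e-11), just past the threshold of 0.58.

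*Ear1* was the exception, with means of 45.8 ± 0.366 CPM in Ly6Ghigh neutrophils of macrometastatic lung and 40.7 ± 2.21 CPM in those of normal lung (SD, n = 3). The fitted difference, 0.17 on the log2 scale with an SE of 0.0529 and an edgeR adjusted p of 0.00492, was under the threshold, and its direction depends on the scaling: it was -0.02 with upper-quartile normalization and -0.29 on log2(FPKM + 1). The median of all genes moved too, from -0.09 with TMM to -0.28 and -0.32 in these settings. Relative to that median, *Ear1* was higher by TMM and by upper-quartile normalization and close to it on FPKM. The other 9 genes were lower under each of these scalings.

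**Figure D2:**
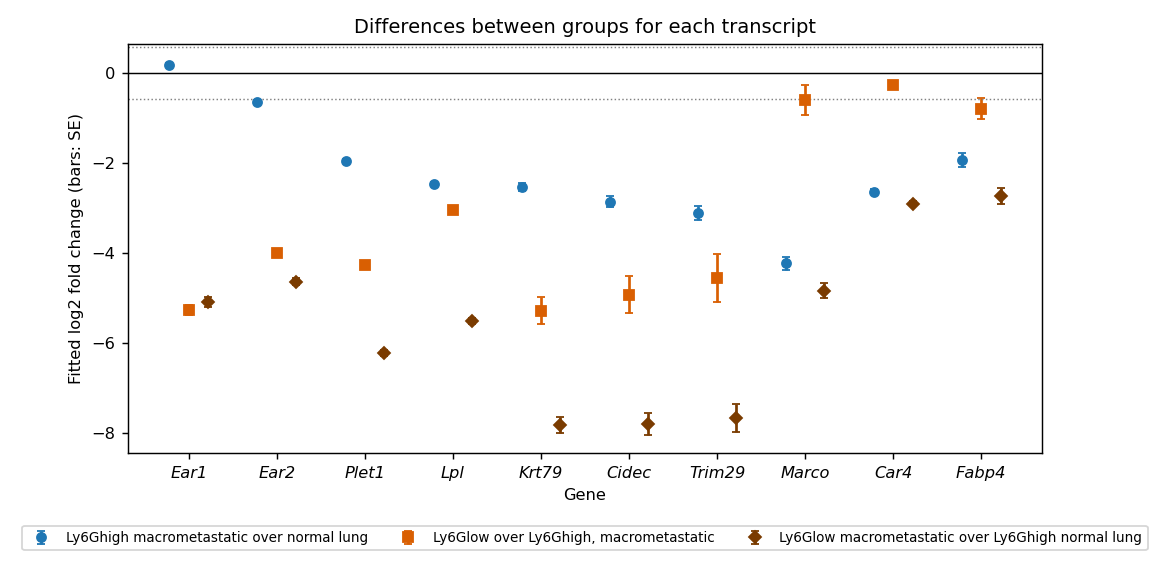
Fitted log2 fold change of each gene in the 3 comparisons, with bars for the standard error, a solid line at 0 and dotted lines at the threshold of 0.58. Against normal lung, macrometastatic Ly6Ghigh values run from 0.17 for *Ear1* to -4.23 for *Marco*. The values of Ly6Glow over Ly6Ghigh run from -0.27 for *Car4* to -5.28 for *Krt79*, and 3 genes lie near the threshold.

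Because the genes did not move by equal steps, their proportions differed between lungs. Proportions within a library do not depend on how libraries are scaled. For every 100 counts of *Plet1*, macrometastatic Ly6Ghigh libraries held 71.1 to 73.1 counts of *Ear1*, and normal lung libraries held 15.4 to 17.6. For *Ear2* these were 103 to 122 and 44.8 to 45.2. *Ear1* and *Ear2* were thus 4.36 and 2.48 times as high relative to *Plet1* in macrometastatic lung.

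The other proportions lay lower in macrometastatic lung, or were level. *Marco* fell from 6.1 to 6.89 counts per 100 *Plet1* counts in normal lung to 1.18 to 1.49. Relative to *Plet1*, *Lpl*, *Krt79*, *Car4*, *Cidec* and *Trim29* stood at 0.695, 0.667, 0.623, 0.532 and 0.446 of their normal lung proportion. *Fabp4* overlapped, at 2.37 to 3.17 and 2.78 to 2.98. In Ly6Glow libraries, with 128 *Plet1* counts in all, *Car4* stood at 377 to 546 and *Lpl* at 239 to 292 counts per 100 *Plet1* counts. Of the 9 proportions, 8 did not overlap between the macrometastatic and normal lung Ly6Ghigh groups. The same share over all genes was not computed, so nothing is read from that count. By CPM 45.0% of all tested genes lay lower and 40.2% higher without overlap between these groups. Permuting the 6 library labels exactly (two-sided) gave p = 0.1 for each of the 8, the smallest it can give, and an adjusted p of 0.113 over the 9. This permutation test of 3 against 3 cannot pass 0.05.

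**Figure D3:**
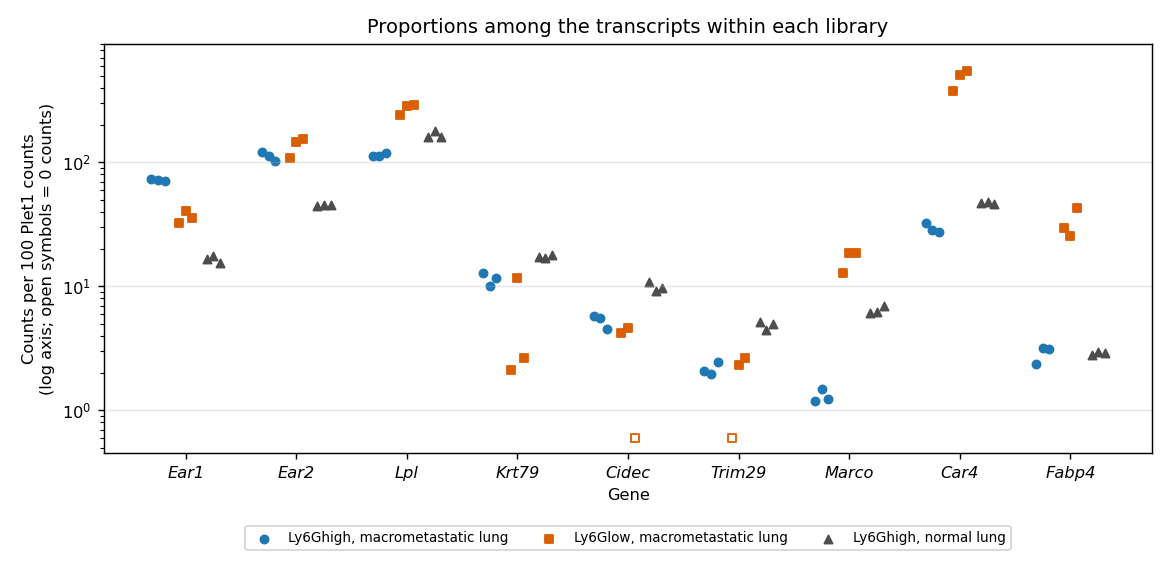
Counts of each of the other 9 genes per 100 counts of *Plet1* in each library, on a log axis, with open symbols for 0 counts. *Ear1* and *Ear2* lie higher in macrometastatic Ly6Ghigh than in normal lung libraries, *Marco* lies lower, and *Fabp4* overlaps. In Ly6Glow libraries *Car4*, *Fabp4*, *Marco* and *Lpl* lie above both other groups.

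Eosinophil genes were highest in macrometastatic Ly6Ghigh libraries. By CPM *Ear1* was highest there too, at 45.8 CPM against 40.7 CPM in normal lung, a difference that depended on the scaling. *Ear2* was highest in normal lung. The 6 eosinophil markers *Prg2*, *Prg3*, *Epx*, *Ccr3*, *Il5ra* and *Alox15* summed to 20.4 to 22 CPM in normal lung, 103 to 109 CPM in macrometastatic Ly6Ghigh and 12.8 to 14 CPM in Ly6Glow libraries. *Alox15* made most of the normal lung sum, at 18.1 CPM on average, and had 6.07 CPM in Ly6Glow. Against normal lung, 3 of the 6 were called higher in Ly6Glow and 1, *Alox15*, lower (28.7% and 40.8% of all tested genes). All 6 were called higher in macrometastatic Ly6Ghigh than in normal lung neutrophils (26.3% of all tested genes were), and all 6 lower in Ly6Glow than in Ly6Ghigh macrometastatic neutrophils (15.9% of all tested genes were). *Ear6*, a further Ear gene, went from 0.286 CPM in normal lung to 31.9 CPM in macrometastatic Ly6Ghigh and 0.411 CPM in Ly6Glow neutrophils. The part of eosinophil RNA in the *Ear1* and *Ear2* values was not tested.

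The comparison of Ly6Glow with Ly6Ghigh neutrophils of macrometastatic lung is the one the genes were picked on. In it 8 of the 10 were called, *Marco* and *Car4* being the others, against 15.9% of all tested genes called lower, and nothing is read from that count. Ly6Glow neutrophils kept 2.43% of the Ly6Ghigh CPM of *Krt79*, 2.59% of *Ear1*, 3.1% of *Cidec*, 3.66% of *Trim29*, 5.22% of *Plet1*, 6.24% of *Ear2* and 12.2% of *Lpl*. They kept 57.6% of *Fabp4*, 65.3% of *Marco* and 83.0% of *Car4*.

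Few counts stand behind the scarcest genes. Over the 3 libraries of a group, *Krt79* had 7 counts in Ly6Glow and 361 in Ly6Ghigh macrometastatic neutrophils. *Cidec* had 4 and 166 counts, *Trim29* had 2 and 68 counts, and *Marco* had 21 and 41 counts.

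Against normal lung Ly6Ghigh neutrophils, a contrast also counted as used by the choice of genes, all 10 were called lower in Ly6Glow, where 40.8% of all tested genes were called lower. *Krt79*, *Cidec* and *Trim29* were at 0.417%, 0.425% and 0.421% of their normal lung CPM, *Plet1* at 1.35%, *Lpl* at 2.19%, *Ear1* at 2.92%, *Marco* at 3.43% and *Ear2* at 3.99%. *Car4* and *Fabp4* were the least reduced, at 13.3% and 14.9%.

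*Car4* and *Fabp4* are also endothelial genes, and 10 endothelial markers (*Ptprb*, *Calcrl*, *Pecam1* and others) were measured beside them. They summed to 203 to 208 CPM in macrometastatic Ly6Ghigh, 246 to 251 CPM in Ly6Glow and 1487 to 1496 CPM in normal lung libraries. Between Ly6Glow and Ly6Ghigh macrometastatic neutrophils 0 of the 10 were called by edgeR and 0 by DESeq2. By edgeR 9.29% of all tested genes were called higher and 15.9% lower. At an unadjusted edgeR p under 0.05, 6 of the 10 were higher and 0 lower, with a median log2 fold change of 0.18. Some of the 6 also passed the adjusted p threshold and missed a call only by the size of the fold change. Among them were *Ptprb* (0.445, edgeR adjusted p = 1.89e-06) and *Pecam1* (0.412, edgeR adjusted p = 6.17e-08). All 10, with a median of -2.83, were called lower in macrometastatic than in normal lung Ly6Ghigh neutrophils, against 36.6% of all tested genes. Their part in the *Car4* and *Fabp4* values was not tested. Of 12 lung epithelial markers led by *Sftpc*, *Sftpa1* and *Sftpb*, 2 were called lower in Ly6Glow than in Ly6Ghigh (median -0.03), near the 15.9% of all tested genes. All 12 were called lower in macrometastatic than in normal lung Ly6Ghigh neutrophils (median -3.52), against 36.6% of all tested genes. They summed to 151 to 158, 162 to 166 and 1609 to 1757 CPM in macrometastatic Ly6Ghigh, Ly6Glow and normal lung libraries. Adipocyte RNA was near absent: 6 marker genes summed to at most 3.82 CPM in any library, and *Adipoq* averaged at most 0.106 CPM in a group.

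Other genes of alveolar macrophages were counted from a list of 22 that leaves out the 10. It was written with some results of these data known, among them those of *Ear6*, *Atp6v0d2* and *Slc39a2*. Of 21 tested, 17 were called lower and 2 higher in macrometastatic than in normal lung Ly6Ghigh neutrophils (36.6% and 26.3% of all tested genes; median log2 fold change -1.85). In Ly6Glow over Ly6Ghigh macrometastatic neutrophils 16 were called lower and 1, *Rufy4*, higher (15.9% and 9.29% of all tested genes; median -1.47, against -0.04 for all tested genes). In Ly6Glow over normal lung neutrophils 18 were lower and 1, again *Rufy4*, higher (40.8% and 28.7% of all tested genes; median -3.1, against -0.16). *Ear10*, at 0.121 CPM or less in every group mean, was not tested.

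Genes of that list with the steps of *Plet1* or *Lpl* were *Atp6v0d2*, a proton pump subunit (145 CPM in normal lung, 25.3 CPM in macrometastatic Ly6Ghigh and 1.42 CPM in Ly6Glow neutrophils), *Pparg*, the nuclear receptor of the alveolar macrophage program (25.9, 5.57 and 0.925 CPM), and *Ctsk*, a lysosomal protease (104, 15.4 and 2.63 CPM). *Bhlhe41*, a transcription factor of these cells, had 40.3, 7.81 and 1.09 CPM, and *Mrc1*, the mannose receptor, had 428, 119 and 28.6 CPM. Other members did not share the pattern. *Siglecf*, a sialic acid binding receptor that defines alveolar macrophages and is also carried by eosinophils, had 38.7, 31.4 and 29.5 CPM and was called in no comparison. *Chil3*, a chitinase-like secreted protein, had 964, 1274 and 277 CPM, and *Rufy4* was highest in Ly6Glow (19.2, 61.5 and 108 CPM).

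**Figure D4:**
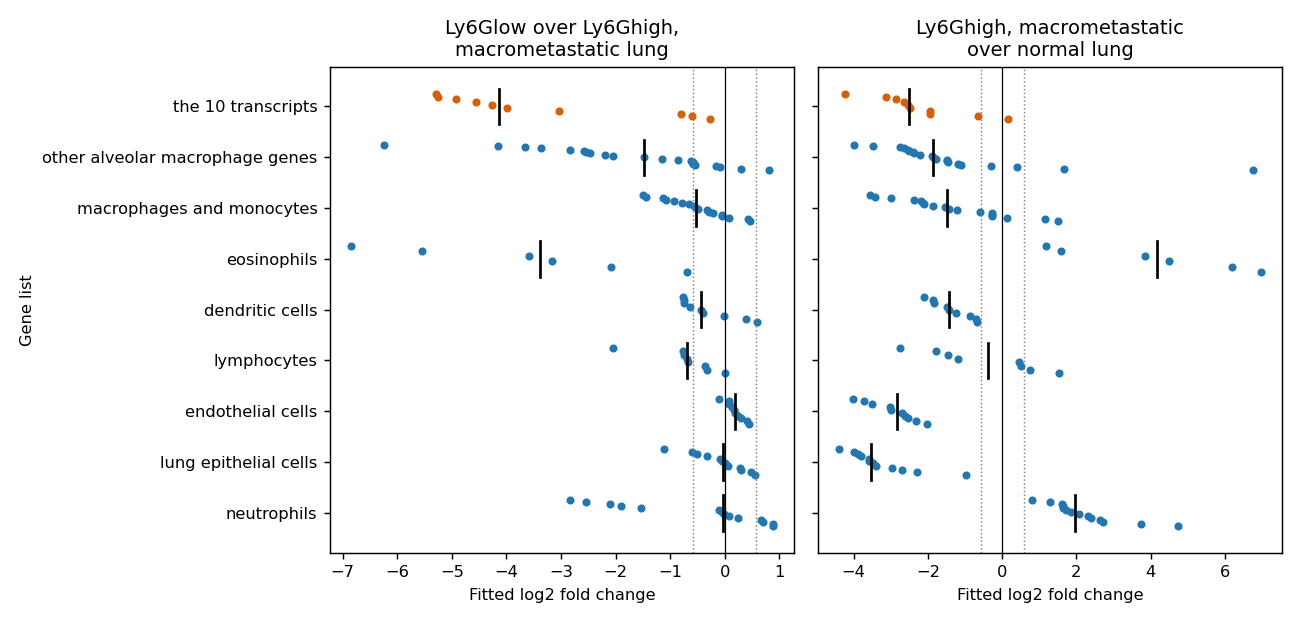
Fitted log2 fold changes of the tested genes of each list, 1 point per gene with a bar at the list median, a solid line at 0 and dotted lines at the threshold of 0.58. Between the macrometastatic sorts most alveolar macrophage and all 6 eosinophil genes lie to the left while endothelial and epithelial genes lie around 0, with medians of 0.18 and -0.03. Between lungs, endothelial and epithelial genes lie to the left as well.

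Markers shared by many macrophages and monocytes changed less between the macrometastatic sorts than the wider alveolar macrophage list did, by their medians. Of 18, 7 (38.9%) were called lower in Ly6Glow than in Ly6Ghigh by edgeR (median -0.52), against 15.9% of all tested genes. By edgeR or DESeq2 0 were called higher, with 2 higher at an unadjusted edgeR p under 0.05. These 2, *Csf1r* and *Cd68*, had edgeR adjusted p of 9.31e-10 and 5.13e-08. They missed a call only by the size of the fold change. By edgeR 9.29% of all tested genes were called higher. *Apoe*, *Csf1r* and *Cd68*, the most abundant of the 18, had log2 fold changes of -0.055, 0.46 and 0.43, none past the threshold. The 7 genes called lower in Ly6Glow are not among these, and their log2 fold changes ran from -1.496 to -0.662. The 18 genes summed to 858 to 862 CPM in macrometastatic Ly6Ghigh and 823 to 854 CPM in Ly6Glow libraries, against 1339.7 to 1431 CPM in normal lung. *Adgre1*, which encodes F4/80, had 54.6, 43.9 and 65.5 CPM in macrometastatic Ly6Ghigh, Ly6Glow and normal lung neutrophils. Of 9 dendritic cell markers, 4 were called lower and 1 higher in Ly6Glow than in Ly6Ghigh (median -0.44), against 15.9% and 9.29% of all tested genes. All 9 were called lower in macrometastatic than in normal lung Ly6Ghigh neutrophils, against 36.6% of all tested genes. Between the macrometastatic sorts, 5 of 8 tested lymphocyte markers were called lower in Ly6Glow (median -0.69), against 15.9% of all tested genes.

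Other genes of the GM-CSF receptor and of regulators of these cells varied. Of 13, 2 were called lower and 1 higher in Ly6Glow than in Ly6Ghigh macrometastatic neutrophils (15.9% and 9.29% of all tested genes; median 0.11), and 6 were lower and 1 higher in macrometastatic than in normal lung Ly6Ghigh neutrophils (36.6% and 26.3% of all tested genes; median -0.06). *Csf2rb*, the common beta chain of the GM-CSF receptor, had 1214, 1689.8 and 1267 CPM in macrometastatic Ly6Ghigh, Ly6Glow and normal lung neutrophils, and these genes are also used by neutrophils. *Egr2*, a transcription factor, was called lower in both comparisons, with log2 fold changes of -0.6 and -2.07. *Klf4*, another, was called lower in macrometastatic against normal lung (-2.22), and its value between the sorts was -0.356. *Cebpb*, a transcription factor, was called higher in Ly6Glow (log2 fold change 0.89), and *Spi1*, which encodes PU.1, was not called there (0.245). *Spi1* was the 1 gene of the 13 called higher in macrometastatic than in normal lung Ly6Ghigh neutrophils (1.016).

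Lipid genes outside the 10 were called in both directions. Of 15 genes of lipid uptake, droplets and export, 5 were called higher and 3 lower in Ly6Glow than in Ly6Ghigh macrometastatic neutrophils (9.29% and 15.9% of all tested genes; median 0.44). In turn 4 were called higher and 3 lower in macrometastatic against normal lung Ly6Ghigh neutrophils (26.3% and 36.6% of all tested genes; median -0.34), with the share called higher near that of all genes. *G0s2*, an inhibitor of lipolysis, rose by 0.84 on the log2 scale in Ly6Glow, while *Plin2*, a coat protein of lipid droplets, was not called there (0.52). *Dgat2*, which makes triglycerides, rose by 0.85. *G0s2*, *Plin2* and *Dgat2* are named as the 3 most abundant of the 15, and the 3 genes called lower in Ly6Glow are not among them. How the lipid genes relate to the low *Cidec* and *Lpl* values in that sort was not tested.

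Genes whose log2 CPM most closely tracked the mean profile of the 10 over the 9 libraries were *Hsp90ab1*, *Slc6a4*, *B3gnt7*, *Axl* and *Hyou1*, with Pearson correlations of 0.9986 to 0.9991. This is a description of 9 libraries in 3 groups that share depth and scaling. *Axl*, a receptor tyrosine kinase, had 303 ± 2.2 CPM in normal lung, 64.2 ± 0.43 CPM in macrometastatic Ly6Ghigh and 7.79 ± 0.712 CPM in Ly6Glow neutrophils (SD, n = 3). *Slc6a4*, the serotonin transporter, had 18.3, 3.68 and 0.308 CPM, and *B3gnt7* had 28.7, 5.37 and 0.644 CPM. *Hsp90ab1* and *Hyou1*, which encode chaperones, had the same order with smaller steps, at 717, 508 and 312 CPM and at 90.2, 59.7 and 35.5 CPM. Among the 10, *Lpl* tracked the mean most closely (0.9989) and *Car4* least (0.8616).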

How the data were processed

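RNA was sequenced by BGI from 9 libraries of sorted mouse lung neutrophils, grouped by title. The label description of the normal lung libraries names the Ly6Ghigh group alone, so their group rests on the title and treatment fields. The authors deposited an estimated count per gene and library, without normalization, and an FPKM value, normalized by the authors for transcript length and fragment number. The submitters' processing notes name mm10, and aligner and counter are not given in the sources used here. Of 22064 genes listed, 3739 were blank. Of the estimated counts 37.9% were whole (to within 1e-09), and all were rounded for the tests.

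Counts were fitted in R 4.3.3 with edgeR 4.0.16 (TMM, filterByExpr by group, quasi-likelihood F test, all 9 libraries in 1 model). The standard error is the log2 fold change divided by the square root of F. DESeq2 1.42.0 and limma 3.58.1 served as alternatives, as did other scalings, filters, thresholds, a replicate block and leaving out each library. The fit was tested on simulated data. Depth was 15267177 to 17841807 counts per library. Positions and transcripts are from GENCODE M21 (GRCm38, the assembly of mm10) and promoters from RefSeq. Shared windows were exact matches of 150 bases.

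The 10 genes and the 11 marker lists (136 symbols, 134 with values) were chosen with earlier results of these data known. Named genes are the 10, any gene of the alveolar macrophage list, the 3 most abundant of each other list and the 5 closest in profile to the mean of the 10 (log2 CPM, prior count 2). *Ly6g*, *Egr2*, *Klf4*, *Adgre1*, *Adipoq*, *Prg3*, *Epx* and *Il5ra* were named after their values were seen.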

Additional observations from a re-analysis of the deposited data

How the results depend on the processing

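Across 21 alternatives the values of Ly6Glow over normal lung neutrophils stayed below 0 and past their threshold wherever a gene was retained (206 of 206 values over the 10 genes). For Ly6Glow over Ly6Ghigh macrometastatic neutrophils all 206 values were below 0, with 4 that lost and 2 that gained the threshold. *Fabp4* lost it without Ly6Glow replicate 2 (-0.645), and *Trim29* lost it on log2(FPKM + 1) (-0.529). Both Ly6Glow comparisons count as used by the choice of genes. Nothing is therefore read from the direction of these values or from the numbers of the 10 genes called in them. For macrometastatic over normal lung Ly6Ghigh neutrophils 199 of 206 kept direction and side of the threshold. *Ear1* changed sign with upper-quartile normalization (-0.02), with at least 10 counts in every library (-0.001), and on FPKM (-0.287 with a pseudocount of 1, also when only genes with at least 1 FPKM in 3 libraries were kept, and -0.29 with 0.1).

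The number of the 10 genes called lower was 8 or 9 in macrometastatic over normal lung Ly6Ghigh, 7 to 9 in Ly6Glow over Ly6Ghigh (7 without Ly6Glow replicate 2) and 10 in Ly6Glow over normal lung under all alternatives but one. It moved further when 10 counts were required in every library, to 5 for macrometastatic over normal lung Ly6Ghigh, 5 for Ly6Glow over Ly6Ghigh and 6 for Ly6Glow over normal lung, since fewer genes are then tested. Over all genes, the count of 3560 for Ly6Glow over Ly6Ghigh became 7868 without a fold-change threshold, 1305 at a threshold of 1, 2243 on log2(FPKM + 1) and 2223 when FPKM of at least 1 in 3 libraries was also required. On log2(FPKM + 1) no gene of the wider alveolar macrophage list, 0 against 1, was called higher in that comparison, and the cause was not tested. Leaving out any one library moved no count by over 1.5 times.

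Deviations of same-numbered libraries from their group means correlated between -0.0683 and 0.0766. These values show no pairing by replicate number but cannot exclude it, since the deviations may be technical. The main fit did not pair the libraries. With a replicate block 8856 genes were called in macrometastatic over normal lung Ly6Ghigh, 3522 in Ly6Glow over Ly6Ghigh and 9775 in Ly6Glow over normal lung. Depth limits *Krt79*, *Cidec* and *Trim29*, with 7 counts or fewer over the 3 Ly6Glow libraries, and *Marco* in both macrometastatic sorts.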
